A study of Mus musculus with 12 samples.

Results

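The genes of the major histocompatibility complex (MHC, called H2 in the mouse) and of antigen presentation were examined in the livers of naturally conceived mice and of mice conceived by in vitro fertilization (IVF), in both sexes. They were taken as every gene symbol of the deposited count table that starts with H2-, apart from 2 that end in -ps, together with B2m, Tap1, Tap2, Tapbp, Psmb8, Psmb9, Psmb10, Nlrc5, Ciita and Cd74. This gave 52 of 24527 symbols. A filter on low counts was passed by 32 of the 52, against 13204 symbols of the whole table, and 13 of the 52 had no count in any library. The animals were 39 weeks old and descended from CF1 mothers and B6SJL fathers, and the label of the IVF animals names a protocol of the Jackson Laboratory. Naturally conceived females, IVF females, naturally conceived males and IVF males were represented by 3 libraries each, numbered 1 to 3 here. Snap frozen liver served for poly-A selected messenger RNA sequencing, so that hepatocytes and the immune cells of the tissue were measured together. CF1 is an outbred stock and B6SJL is a hybrid of inbred strains, so that H2 alleles can differ between these animals and from the C57BL/6 reference. The part that allele differences played in the counts below was not tested. The title of each library carries a number, shared in its leading digits by IVF female 1 and IVF male 2, which was read as that of a separate animal, although the labels do not say so. If this is wrong, the p-values below measure only technical spread.

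MHC class I molecules present peptides from proteins made inside the cell, and almost all nucleated cells carry them. Their heavy chains are encoded by the classical genes H2-K1 and H2-D1 and by the nonclassical H2-Q, H2-T and H2-M genes, and they are stabilized by the light chain B2m. Peptides are cut by the proteasome, into which Psmb8, Psmb9 and Psmb10 are built in place of constitutive subunits under interferon-gamma. They are then pumped into the endoplasmic reticulum by the Tap1-Tap2 transporter and loaded with the help of tapasin (Tapbp). MHC class II molecules present peptides from engulfed proteins and are made mainly by dendritic cells, B cells and macrophages. Their chains, H2-Aa with H2-Ab1 and an alpha chain with H2-Eb1, assemble with the invariant chain Cd74 and exchange its fragment for a peptide with the help of H2-DM. Nlrc5 is the main transactivator of class I genes and Ciita that of class II genes. In the liver, class II is found chiefly on Kupffer cells, dendritic cells and B cells, and H2-Q10 is known as a class I molecule that hepatocytes secrete.

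Both transactivators act on a shared promoter module that includes a cyclic AMP response element (CRE)-like box and a Y box. The promoter windows of 6 genes are shown because the results below turn on these genes, or on their contrast with each other. Each covers 250 bases before to 50 bases after the start site, from RefSeq on GRCm38.p6, and runs 5′ to 3′ on the strand of the gene. Capitals mark letters that match 1 of 6 motifs on either strand. These were the Y box core CTGATTGG, CCAAT, the enhancer A palindrome, the CRE core TGACG, an interferon-stimulated response element (ISRE) core and the gamma-activated sequence (GAS) TTCNNNGAA. The reverse complement of the Y box core contains CCAAT, so that each Y box match is a CCAAT match too.
H2-Aa (chr17:34287774-34288073, minus strand): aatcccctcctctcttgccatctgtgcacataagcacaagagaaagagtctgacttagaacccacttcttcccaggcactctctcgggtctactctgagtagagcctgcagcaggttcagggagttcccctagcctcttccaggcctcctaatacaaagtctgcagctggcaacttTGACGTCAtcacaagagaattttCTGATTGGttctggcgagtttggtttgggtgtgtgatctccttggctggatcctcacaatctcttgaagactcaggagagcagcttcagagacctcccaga
H2-Eb1 (chr17:34305617-34305916, plus strand): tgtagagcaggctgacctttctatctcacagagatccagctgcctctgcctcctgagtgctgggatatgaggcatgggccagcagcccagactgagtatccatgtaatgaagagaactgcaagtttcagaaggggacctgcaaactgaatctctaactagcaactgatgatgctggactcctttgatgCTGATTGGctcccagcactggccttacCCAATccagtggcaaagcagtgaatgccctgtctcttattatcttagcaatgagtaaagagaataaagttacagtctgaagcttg
H2-K1 (chr17:34000284-34000583, minus strand): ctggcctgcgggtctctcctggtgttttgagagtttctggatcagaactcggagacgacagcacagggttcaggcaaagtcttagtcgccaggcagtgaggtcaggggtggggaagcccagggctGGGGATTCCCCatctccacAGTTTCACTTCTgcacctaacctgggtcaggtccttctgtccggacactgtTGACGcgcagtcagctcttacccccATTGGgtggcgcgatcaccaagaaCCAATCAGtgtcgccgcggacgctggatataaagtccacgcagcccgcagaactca
H2-D1 (chr17:35262844-35263143, plus strand): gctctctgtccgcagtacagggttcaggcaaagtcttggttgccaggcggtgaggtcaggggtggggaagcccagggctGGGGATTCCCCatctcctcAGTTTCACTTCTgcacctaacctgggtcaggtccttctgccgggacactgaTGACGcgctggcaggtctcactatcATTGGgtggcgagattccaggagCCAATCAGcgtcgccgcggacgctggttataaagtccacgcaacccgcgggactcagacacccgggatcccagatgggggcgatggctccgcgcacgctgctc
H2-Q10 (chr17:35469839-35470138, plus strand): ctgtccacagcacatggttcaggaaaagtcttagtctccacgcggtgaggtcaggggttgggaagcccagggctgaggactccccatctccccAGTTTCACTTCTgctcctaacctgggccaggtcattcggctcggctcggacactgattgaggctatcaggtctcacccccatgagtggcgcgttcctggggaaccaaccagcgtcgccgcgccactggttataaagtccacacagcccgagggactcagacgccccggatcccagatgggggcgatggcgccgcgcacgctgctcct
Psmb9 (chr17:34187281-34187580, minus strand): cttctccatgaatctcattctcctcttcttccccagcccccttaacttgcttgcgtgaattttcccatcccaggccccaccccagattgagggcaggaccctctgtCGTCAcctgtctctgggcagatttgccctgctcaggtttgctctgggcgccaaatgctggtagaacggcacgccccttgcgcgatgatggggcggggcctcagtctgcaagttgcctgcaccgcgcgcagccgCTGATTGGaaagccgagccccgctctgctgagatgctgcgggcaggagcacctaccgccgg

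The windows of the class II genes H2-Aa and H2-Eb1 each held a Y box core, beginning 51 and 62 bases before the start site. Those of H2-DMa, H2-DMb1, H2-DMb2 and H2-Ob, not shown, held no exact match to it. H2-K1 and H2-D1 held enhancer A, the ISRE core, a CRE core and a Y box core in the same order. The window of H2-Q10 matched that of H2-D1 at 254 of 291 aligned bases (87.3%) and that of H2-K1 at 84.5%, yet of the 6 motifs it held the ISRE core alone. Of the 52 genes, 37 had a window in the RefSeq table. The Y box core occurred in 19 of these 37, against 4.1% of 32851 windows of all genes. Counts out of 37 are of genes, H2-K1 and H2-M9 among them with more than a single window, while the percentages are of windows. Many of the 37 are related in sequence, and Psmb9 and Tap1 share the same Y box site. The 19 include genes without any count, such as H2-Q6 and H2-M1. Enhancer A occurred in 3 of the 37, H2-K1, H2-D1 and H2-Q6, against 0.0304% of all windows, and the ISRE core in 6, against 0.0335%. The less specific CCAAT was present in 32 of the 37 and in 37.4% of all windows, the CRE core in 15 and in 20.8%, and the GAS in 4 and in 8.3%. The matches are a description of letters and do not show that a factor binds.

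Total counts ranged from 6826534 in IVF female 1 to 27832271 in natural male 3. IVF female 1 and natural female 2, with 8056230 counts, were the shallowest libraries, and some of the genes stood apart in them. A count of 3, taken as the floor of detection, corresponded to 0.439 CPM (counts relative to the library total) in the shallowest and 0.108 in the deepest library. Levels below are CPM, scaled by the trimmed mean of M-values (TMM). The 52 genes together took from 0.353% to 0.494% of the counts of a library. The labelled sexes matched the transcripts of the sex chromosomes, with Xist at 9122 counts or more in each female library and at most 27 in each male library, and Ddx3y at most 1 in females and at least 1443 in males.

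Per kilobase of exon, B2m was the most abundant of the genes, with a median over the 12 libraries of 1270 CPM per kb. H2-Q10 followed with 400 and H2-K1 with 172 CPM per kb. H2-D1 (39.8) and the nonclassical H2-T23 (39.0), which encodes the presenter of class I signal peptides Qa-1, lay close together on this scale, and their ranges of 28.3 to 51.9 and 14.7 to 56.2 overlapped. The invariant chain Cd74 reached 27.0 CPM per kb, while the class II chains H2-Eb1 and H2-Ab1 reached 5.33 and 4.7. The per-length order is affected by shared sequence, because reads from near-identical genes may be lost or misassigned. Only 46.5% of the 50-base stretches of H2-T22 and 49.6% of those of H2-T10 were unique to the gene among annotated transcripts, and values of these 2 genes are uncertain. Of the 3 classical heavy chain symbols, H2-L, known from other haplotypes than that of the reference, had 11 counts over all libraries and did not pass the filter. Of 28 nonclassical genes, 11 passed. The 13 without any count were all nonclassical and included H2-Q6, H2-Q8 and H2-Q9, and H2-Q7 had 1 count in all. Of 10 class II genes and chaperones, 8 passed, and the other two, H2-Eb2 and H2-Oa, stayed at or below 0.3595 CPM in each library. H2-Ke6, which encodes a steroid dehydrogenase, and H2-K2, annotated as a pseudogene, came in only through their symbols. Reads of H2-Ke6 are uncertain too, since 70.5% of its 50-base stretches occur in the overlapping transcript Gm20427.

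**Figure D1:**
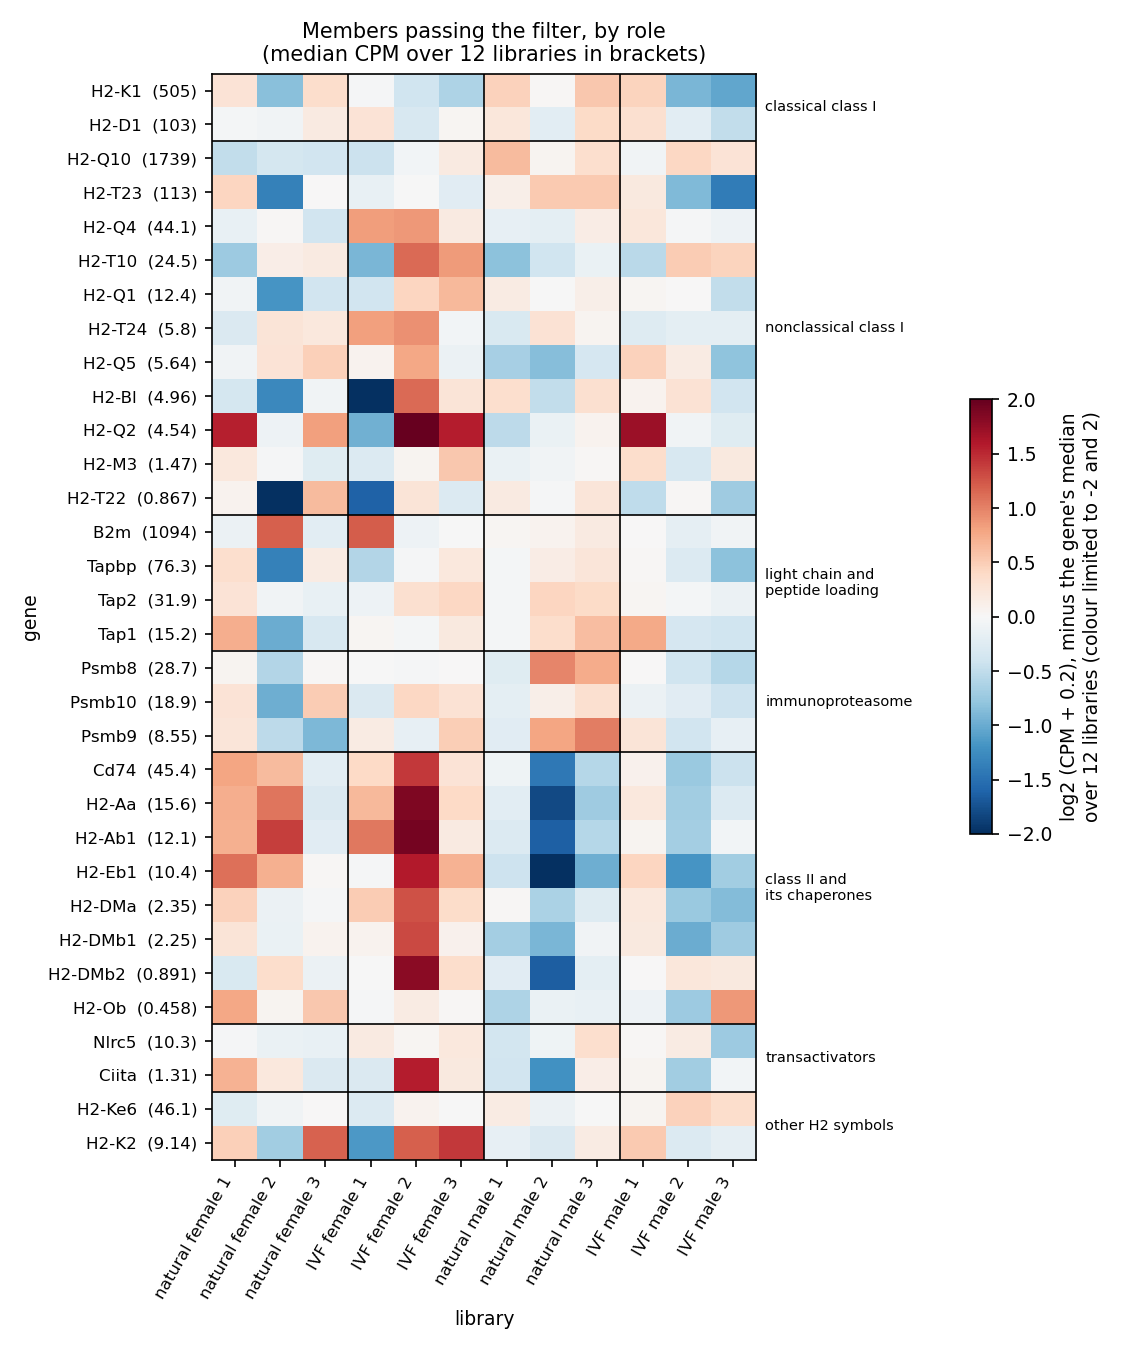
Levels of the 32 genes that passed the filter (vertical axis, grouped by role, median CPM in brackets) in the 12 libraries (horizontal axis, grouped by conception and sex). Colour gives log2 (CPM + 0.2) minus the gene's median over the libraries, limited to -2 and 2, and the class II block is mostly red in the female and blue in the male libraries.

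The first question was how the genes differed between the sexes. In natural animals 0 of the 32 passed edgeR's quasi-likelihood test, with a threshold of 0.05 after Benjamini-Hochberg adjustment over all genes, where 234 of 13204 genes (1.77%) were. At an unadjusted p under 0.05 there were 8 of 32, against 14.9% of all genes, of which 5 were lower in males, against 7.71%, and 3 higher, against 7.21%. The libraries of the sexes did not overlap for 6 of the 32, against 20% of all genes: H2-Ab1, H2-Eb1, H2-Q5 and H2-Ob were lower and H2-Q10 and H2-Q1 higher in males. In IVF animals 0 of 32 were called, against 289 genes (2.19%). All 8 genes at an unadjusted p under 0.05 in IVF animals were lower in males, against 14.9% of all genes in both directions and 7.92% in this direction, and 5 of 32 did not overlap, against 21.8%. With DESeq2, 2 genes were called in natural animals (H2-Eb1, adjusted p = 0.0398, and H2-Q10, 0.0202) and 1 in IVF animals (H2-DMa, 0.0371), while limma voom called 0 in either. Of the 13204 genes, DESeq2 called 678 in natural and 721 in IVF animals, and voom called 232 and 279. The median log2 fold change of the 32 genes, male against female, was -0.01 in natural animals, beside -0.02 over all genes tested, and -0.41 in IVF animals, beside 0.01. H2-Ab1, H2-Aa, H2-Eb1 and Cd74 had an unadjusted p under 0.05 and lower values in males in both modes of conception. The average of both sex differences was therefore tested as well, a contrast added after those values had been seen. It called 4 of the 32, H2-Ab1, H2-Eb1, H2-Aa and Cd74, all lower in males and all of class II, beside 951 of 13204 genes (7.2%). At an unadjusted p under 0.05 there were 10 of 32, against 23.6% of all genes. DESeq2 called 6 in this contrast, adding H2-DMa and H2-Q10, beside 1693 of the 13204 genes. Voom called 4, beside 936.

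H2-Ab1, the beta chain of the I-A class II molecule (chr17:34257689-34269419, plus strand), had 19.8, 31.9 and 10.2 CPM in natural females and 25.4, 46.3 and 13.8 in IVF females. Natural males had 9.91, 3.75 and 8.10 CPM and IVF males 12.5, 7.48 and 11.66. Within each mode of conception every male library was below every female library, and natural female 3 was the one female library within the range of the males. The log2 fold change, male against female, averaged over both modes of conception, was -1.47 (SE 0.36), a 2.76-fold difference with an edgeR Benjamini-Hochberg adjusted p of 0.0322. Taken separately, it was -1.50 (SE 0.51) in natural and -1.44 (SE 0.51) in IVF animals, with edgeR adjusted p-values of 0.19 and 0.201.

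H2-Aa encodes the partner alpha chain and lies near it on the opposite strand (chr17:34282744-34287823). Its levels were 25.6, 32.6 and 12.5 CPM in natural females and 24.2, 56.9 and 20.3 in IVF females. They were 13.3, 4.24 and 9.29 CPM in natural males and 17.9, 9.45 and 12.8 in IVF males. The averaged sex difference was -1.37 (SE 0.35), 2.58-fold, with an edgeR adjusted p of 0.0402. IVF males lay below all IVF females, while among natural animals male 1 exceeded female 3. The H2-Aa to H2-Ab1 ratio stayed between 0.953 and 1.48 in all 12 libraries, so that both chains varied in step.

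H2-Eb1, the beta chain of the I-E molecule (chr17:34305867-34316674, plus strand), was at 22.6, 17.02 and 10.5 CPM in natural females and at 10.2, 31.6 and 16.9 in IVF females. The males had 7.72, 2.40 and 5.18 CPM when natural and 14.1, 4.48 and 6.31 when from IVF. Natural males were all below natural females, and IVF male 1 exceeded IVF female 1. The averaged difference of -1.49 (SE 0.38) was 2.80-fold, with an edgeR adjusted p of 0.0401. It was -1.71 (SE 0.55) in natural and -1.26 (SE 0.54) in IVF animals.

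Cd74, the invariant chain that escorts class II to endosomes, was the most abundant of the class II group. It stood at 78.0, 70.7 and 39.1 CPM in natural females, 59.5, 120.5 and 54.8 in IVF females, 42.4, 16.6 and 30.5 in natural males and 48.3, 27.1 and 33.7 in IVF males. Of the 6 female libraries 5 were above the highest male. The averaged log2 difference was -1.09 (SE 0.29), 2.13-fold, with an edgeR adjusted p of 0.0444.

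The peptide editor genes pointed the same way without passing the test. H2-DMa, the alpha chain of H2-DM, was at 3.29, 2.16 and 2.32 CPM in natural females, 3.41, 5.99 and 3.08 in IVF females, 2.38, 1.45 and 1.94 in natural males and 2.75, 1.33 and 1.20 in IVF males. Its averaged difference was -0.86 (SE 0.27), with an edgeR adjusted p of 0.084, and IVF males did not overlap IVF females. H2-DMb1, a beta chain, ran from 2.04 to 5.90 CPM in females (median 2.38) and from 1.03 to 2.61 in males (median 1.31), with an averaged difference of -0.90 (SE 0.32) and an edgeR adjusted p of 0.112. The libraries gave 2.73, 2.04 and 2.38 CPM of H2-DMb1 in natural females, 2.38, 5.90 and 2.39 in IVF females, 1.32, 1.10 and 2.13 in natural males and 2.61, 1.03 and 1.30 in IVF males. H2-DMb1 shares 22.7% of its 50-base stretches with H2-DMb2, so that reads of these 2 neighbours may be exchanged. All 8 class II genes tested had a negative averaged difference, with a median of -0.996, beside -0.01 over all genes. Ciita, the class II transactivator, was at 2.25, 1.56 and 1.04 CPM in natural females, 1.04, 4.28 and 1.54 in IVF females, 0.96, 0.45 and 1.46 in natural males and 1.37, 0.74 and 1.25 in IVF males. The sexes overlapped for Ciita, and its averaged difference of -0.92 (SE 0.40) had an edgeR adjusted p of 0.184.

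**Figure D2:**
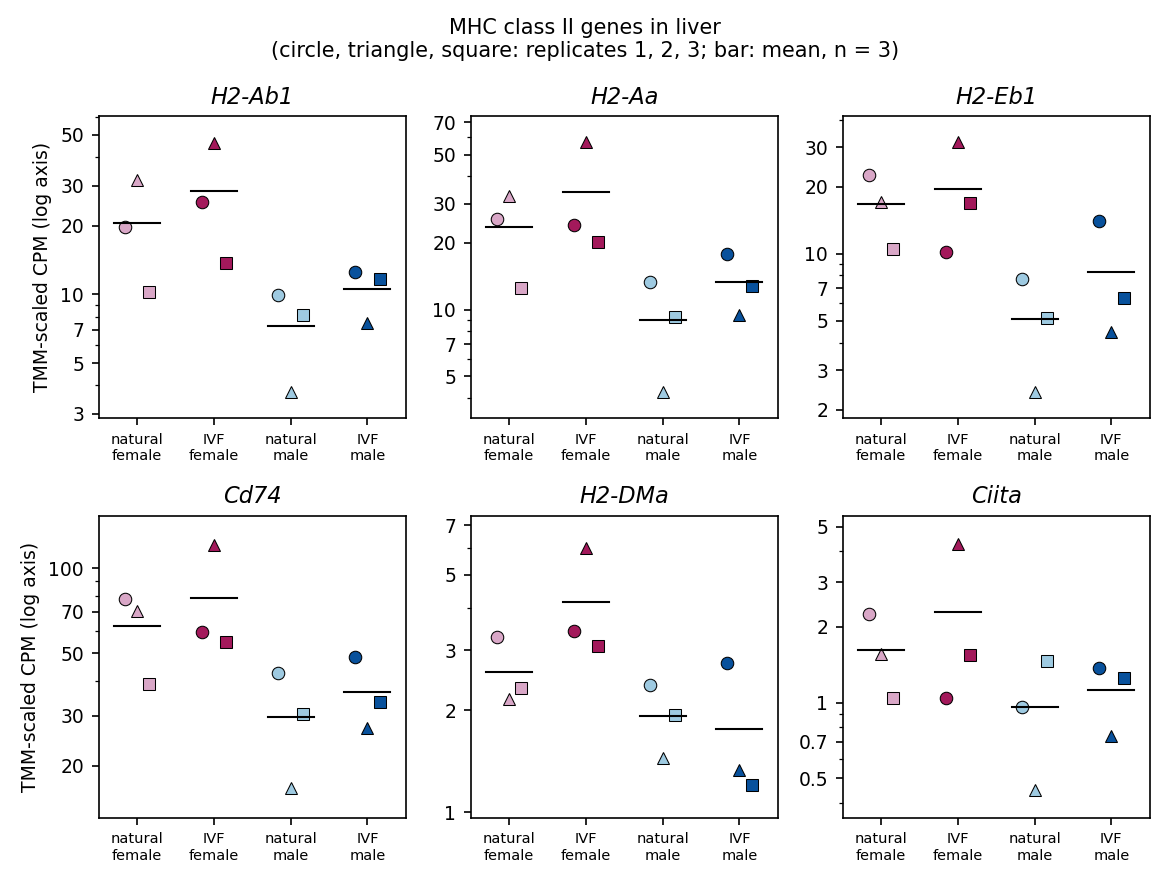
TMM-scaled CPM (log axis) of 5 class II genes and of Ciita in each library, by group; symbols are replicates 1 to 3 and bars are group means, n = 3. IVF female 2 is the highest and natural male 2 the lowest library in all 6 panels except H2-DMa, where IVF male 3 is lowest, and 5 of 6 females lie above all males for H2-Ab1, H2-Aa and Cd74.

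The calls of these 4 genes lay close to the threshold of 0.05 and were lost in most fits that left out 1 library. Leaving out any 1 of the 12 libraries kept the sign of each in every case, but each gene kept its call in 4 of the 12 fits. H2-Ab1 ranged from -1.64 to -1.19 and its edgeR adjusted p from 0.0205 to 0.0802, and Cd74 from -1.26 to -0.86 with an edgeR adjusted p of 0.0344 to 0.105. No gene of the 32 was called without IVF female 2, natural female 1, natural female 2, IVF male 2, IVF male 3, natural male 2 or natural male 3. Without IVF male 1 the called genes were H2-Eb1 and H2-DMa, and without IVF female 3 all but H2-Eb1 of the 4. With both shallow libraries left out, H2-Ab1 (-1.31), H2-Aa (-1.34) and Cd74 (-1.15) had edgeR adjusted p-values of 0.0579, 0.0543 and 0.0541, and H2-Eb1 (-1.65) one of 0.0333. In that fit Psmb10 (-0.48, 0.0497) and H2-K2 (-1.14, 0.0099) were called too.

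Some markers of class II bearing cells differed between the sexes as well, and so did some of other cells. Of 12 macrophage markers, 4 were called lower in males by edgeR in the averaged contrast, Vsig4 (-1.44, adjusted p = 0.000738), Clec4f (-0.67, 0.0191), Timd4 (-1.50, 0.0322) and C1qb (-0.63, 0.0376), and 0 higher. Over all genes, 951 of 13204 (7.2%) were called in this contrast, 479 of them lower in males. Clec4f, Vsig4 and Timd4 mark resident Kupffer cells. The summed level of the 12 ran from 462.6 to 690.2 CPM in females and from 243.8 to 487.1 in males, with 5 of 6 males below the lowest female. The 6 B cell markers summed to 2.97 to 6.15 CPM in females and 1.51 to 4.90 in males. Among them 2 of the 5 tested, Cd79b (-1.39, edgeR adjusted p = 0.0345) and Cd22 (-0.80, 0.0426), were called lower in males. Pax5 had 8 counts over all libraries. The 7 dendritic cell markers summed to 5.26 to 8.27 CPM in females and 3.91 to 6.93 in males, and 0 of the 4 tested were called. Of 5 T cell markers tested, 1, Cd3g (-2.22, edgeR adjusted p = 0.0235), was called lower in males, at a median of 0.34 CPM over all libraries. Another 1 of the 5 had a positive averaged value. The T cell markers summed to 2.14 to 7.91 CPM in females and 1.65 to 5.10 in males. Only 1 NK cell marker was tested, Nkg7, and it was called lower in males (-2.52, edgeR adjusted p = 0.0365) at a median of 0.2 CPM. Of 4 stellate cell markers 1 was called lower in males, with 3 values negative and 1 positive. Of the sinusoidal endothelium, neutrophil and bile duct markers 0 were called, and 5 of 5, 4 of 4 and 3 of 4 had negative values. Lower values in males were thus not particular to class II bearing cells. The 6 hepatocyte markers summed to 69660 to 95300 CPM in males and 91450 to 103500 in females, a sum made up mostly of Alb. Of these markers 0 were called by edgeR in the averaged contrast, and 4 of the 6 had a positive value, with a median of 0.25 and with Alb at -0.50. In bulk liver, fewer cells of a type and less RNA per cell cannot be told apart, and the part of these cells in the class II difference was not tested.

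Among class I genes H2-Q10 was higher in natural males than in natural females without passing the test, and the classical chains overlapped. H2-Q10 (chr17:35470089-35474563, plus strand) was at 1229, 1369 and 1337 CPM in natural females and at 2706, 1795 and 2200 in natural males, without overlap. IVF females had 1293, 1682 and 1965 CPM and IVF males 1650, 2319 and 2103, which overlapped. The log2 fold change, male against female, was 0.77 (SE 0.24) in natural and 0.30 (SE 0.23) in IVF animals, and averaged 0.53 (SE 0.17) with an edgeR adjusted p of 0.0773. The difference between the 2 values was tested by the interaction, given below, and did not pass. H2-Q5, annotated as a polymorphic pseudogene, had 5.34, 6.83 and 7.88 CPM in natural females and 3.47, 3.05 and 4.43 in natural males, again without overlap (-0.87, SE 0.35, edgeR adjusted p = 0.276). In IVF animals H2-Q5 was at 5.94, 9.73 and 5.17 CPM in females and 7.83, 6.35 and 3.15 in males. The nonclassical H2-T24 had 10.4, 11.1 and 5.56 CPM in IVF females and 4.81, 5.02 and 5.05 in IVF males, without overlap and without passing the test (-0.85, SE 0.28, edgeR adjusted p = 0.174). Natural animals had 4.73, 6.95 and 6.78 CPM of H2-T24 in females and 4.66, 7.09 and 6.05 in males. The classical heavy chains did not separate the sexes. H2-K1 was at 608, 282 and 646 CPM in natural females, 697, 514 and 735 in natural males, 497, 384 and 330 in IVF females and 691, 267 and 247 in IVF males. IVF males 2 and 3 were the lowest and IVF male 1 was close to the natural males. The averaged sex difference of H2-K1 was 0.17 (SE 0.29) with an edgeR adjusted p of 0.761. H2-D1 had 99.8, 97.7 and 117 CPM in natural females, 121, 88.5 and 134 in natural males, 124, 82.1 and 106 in IVF females and 128, 88.5 and 72.9 in IVF males, with a difference of 0.01 (SE 0.17). The other class I genes tested were not called in any contrast: H2-T23 ran from 42.5 to 162.5 CPM, H2-T10 from 12.9 to 54, H2-Q2 from 2.23 to 22.3, H2-Bl from 1.04 to 11.1, H2-M3 from 1.13 to 2.22 and H2-T22 from 0 to 1.45.

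**Figure D3:**
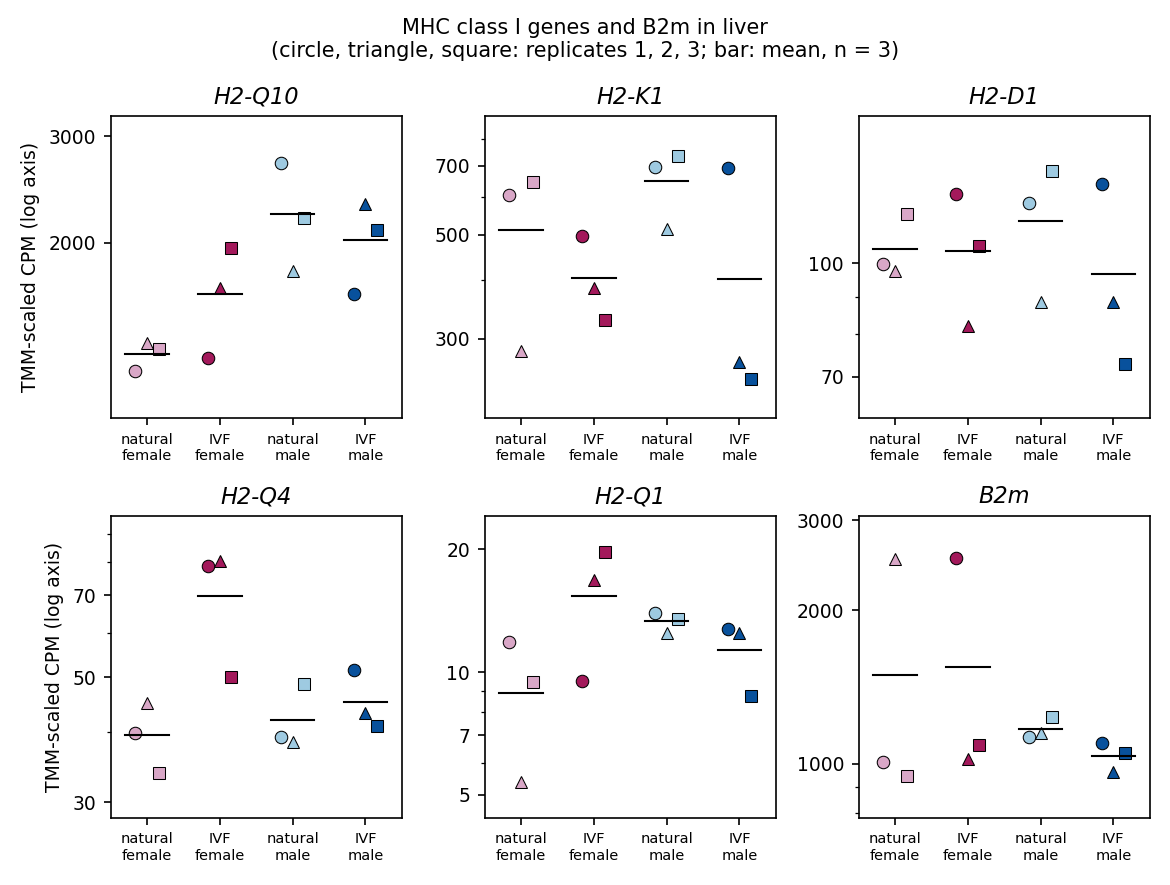
TMM-scaled CPM (log axis) of 5 class I heavy chain genes and of B2m in each library, by group; symbols are replicates 1 to 3 and bars are group means, n = 3. Natural males lie above natural females for H2-Q10, IVF females above natural females for H2-Q4, and B2m is at 2516 and 2535 CPM in the 2 shallowest libraries and between 946 and 1235 in the others.

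The second question was whether the genes differed with IVF. The IVF and sex comparisons share the same 4 groups, so their values are not independent. In females 0 of 32 genes were called by edgeR, where 0 of 13204 genes (0%) were, and 2 of 32 had an unadjusted p under 0.05, against 3.7% of all genes. In males 0 of 32 were called, against 1 gene (0.00757%), and 1 of 32 had an unadjusted p under 0.05, against 2.69%. DESeq2 and voom called 0 of the 32 in either sex, with 2 at an unadjusted p under 0.05 in each sex by each tool. Groups did not overlap for 2 of 32 genes in females, H2-Q4 and Nlrc5, against 7.42% of all genes, and for 2 in males, H2-DMb2 and B2m, against 8.91%. Of the 32 genes, 27 had a positive log2 fold change for IVF in females, with a median of 0.29 beside -0.01 over all genes, and 15 in males, with a median of -0.11 beside 0.01. Without IVF female 2 the median in females was 0.097, and without IVF female 1 it was 0.483. In males it was 0.0775 without IVF male 3 and -0.18 without IVF male 1. The number in females was 23 when libraries were scaled by total counts alone, and that scaling moved the median of all genes to -0.08 in females and 0.14 in males. Averaged over both sexes, a contrast added after the data were seen, 0 of 32 were called by edgeR, DESeq2 or voom, with 2 at an unadjusted p under 0.05 by each, against 2.69% of all genes by edgeR, which called 1 gene (0.00757%).

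H2-Q4, a nonclassical class I heavy chain (chr17:35379617-35385290, plus strand), had the smallest p in females. It was at 39.9, 45.1 and 33.8 CPM in natural females and at 78.8, 80.6 and 50.01 in IVF females. All IVF females were above all natural females, and they were above natural males (39.2, 38.4 and 48.7) as well. IVF males had 51.6, 43.2 and 41.0 CPM, in the range of the natural males but for IVF male 1. The log2 fold change in females was 0.82 (SE 0.21), with an edgeR Benjamini-Hochberg adjusted p of 1. Only 63.6% of the 50-base stretches of H2-Q4 were unique, so that reads of related genes may enter. H2-Q1 had 11.9, 5.39 and 9.44 CPM in natural females against 9.50, 16.8 and 19.7 in IVF females, which overlapped (0.78, SE 0.31, edgeR adjusted p = 1). In males H2-Q1 was at 14.0, 12.4 and 13.5 CPM in natural and 12.8, 12.4 and 8.76 in IVF animals. For H2-K1 the IVF values were -0.34 (SE 0.41) in females and -0.69 (SE 0.41) in males, and for H2-D1 -0.01 (SE 0.24) and -0.24 (SE 0.24). The class II genes had positive values for IVF in 7 of 8 cases in females and 7 of 8 in males, with medians of 0.50 and 0.55, and 0 passed the test. The count was 7 of 8 in both sexes under each of 3 scalings. H2-DMb2, a second H2-DM beta chain, had 0.68, 1.20 and 0.81 CPM in natural females and 0.89, 3.62 and 1.20 in IVF females. In males it had 0.73, 0.15 and 0.75 CPM in natural and 0.89, 1.08 and 1.05 in IVF animals, without overlap and close to the floor. The IVF value of H2-DMb2 averaged over both sexes was 1.03 (SE 0.42, edgeR adjusted p = 0.9999). IVF female 2 was the highest library for 7 of the 8 class II genes, all but H2-Ob, at 255.3 CPM for the sum of H2-Aa, H2-Ab1, H2-Eb1 and Cd74, where the other libraries ran from 27.0 to 152.2. Macrophage markers in that library summed to 690.2 CPM, also the highest of the 12. For IVF in males, where class II values were mostly positive, 11 of 12 macrophage markers had a negative value, with a median of -0.64. In females 10 of 12 macrophage markers had a positive value for IVF, with a median of 0.19. The relation of these markers to the class II values was not tested.

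**Figure D4:**
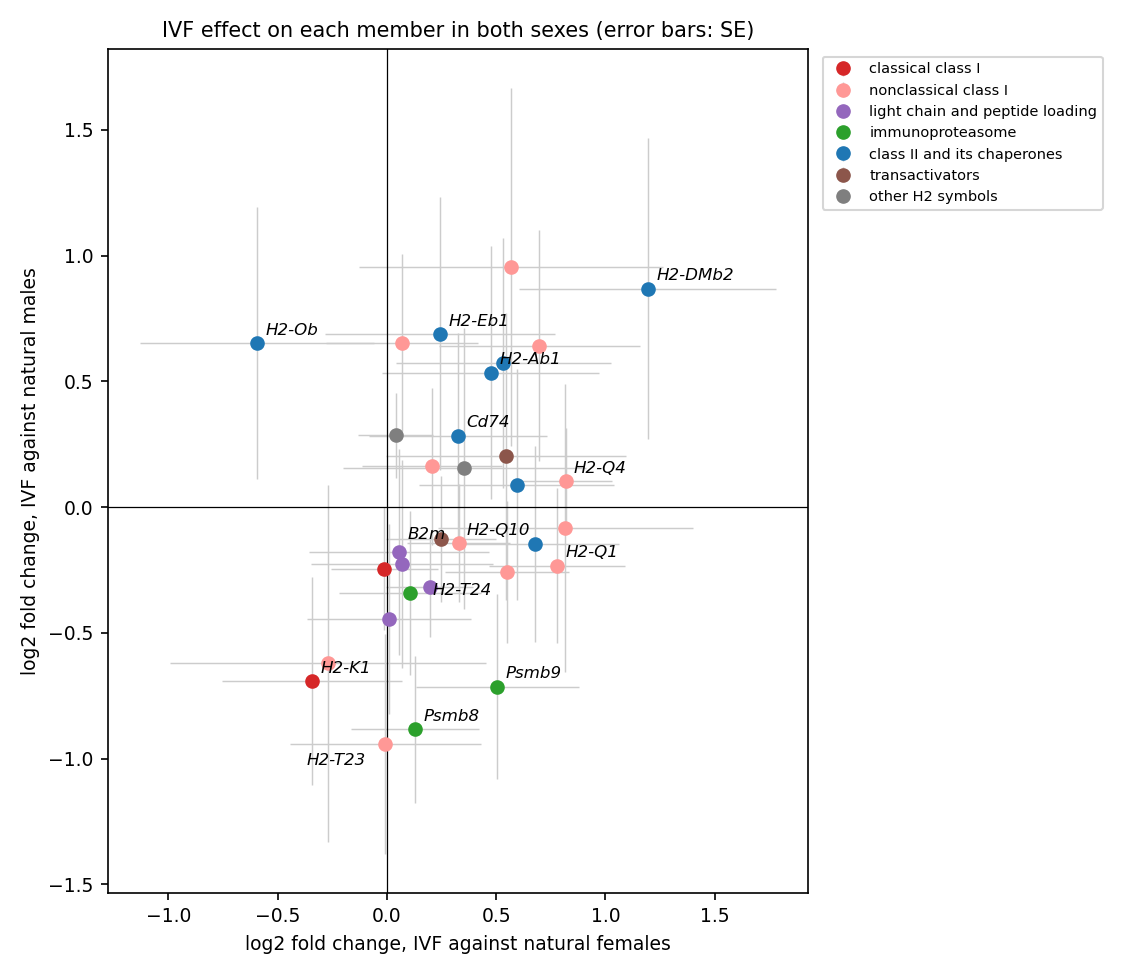
Log2 fold change for IVF against natural conception in females (horizontal axis) and males (vertical axis) for the 32 genes, coloured by role, with standard errors in both directions. Of the 32 genes 27 lie right of 0 (23 with libraries scaled by total counts alone), class II genes lie mostly above 0 and immunoproteasome genes below it in males; 0 of the 32 were called in either sex.

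The light chain and loading genes showed no called difference in any contrast. B2m (chr2:122147686-122153083, plus strand) was at 2516 CPM in natural female 2 and 2535 in IVF female 1, the shallow libraries. The other natural females had 1008 and 946 CPM, the other IVF females 1021 and 1089, natural males 1129, 1151 and 1235 and IVF males 1099, 963 and 1047. The shallow libraries were thus 2.49-fold above the other female libraries for B2m, while the median gene was at 0.972-fold. Against the same female libraries they were low in H2-T22 (0.148-fold), H2-Q2 (0.23-fold), H2-K2 (0.248-fold) and H2-Bl (0.254-fold). Tapbp (0.453-fold), Psmb10 (0.496-fold) and H2-Q1 (0.519-fold) were low too, while H2-Ab1 was at 1.5-fold. Whether depth or another property of these libraries took part was not tested. Each of the 2 groups of females holds a shallow library, and the IVF difference of B2m was 0.06 (SE 0.41) in females and -0.18 (SE 0.41) in males. IVF males lay below all natural males for B2m. Tap1, which overlaps Psmb9 by 212 bases on the opposite strand, had 25.4, 7.55 and 12.1 CPM in natural females, 15.6, 14.8 and 17.4 in IVF females, 14.9, 19.4 and 23.4 in natural males and 26.0, 12.0 and 11.5 in IVF males. Its groups all overlapped. Since the use of strand in counting is not given in the sources used here, reads from the overlap cannot be assigned to Tap1 or Psmb9 with certainty. Tap2 ranged from 28.7 to 43.2 CPM and Tapbp from 29.8 to 96.8.

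Of the immunoproteasome genes Psmb8 had the lowest p for IVF in males. Psmb8 (chr17:34197721-34201454, plus strand), the chymotrypsin-like subunit, was at 24.3, 56.4 and 48.1 CPM in natural males and at 28.8, 21.8 and 19.3 in IVF males. Natural males 2 and 3 were the highest of all libraries, and natural male 1 lay among the IVF males. Natural females had 29.9, 19.1 and 29.1 CPM and IVF females 28.5, 28.3 and 28.9. The log2 fold change for IVF in males was -0.88 (SE 0.29, edgeR Benjamini-Hochberg adjusted p = 1). Psmb9 (chr17:34181987-34187764, minus strand), the subunit that takes the place of Psmb6, had 7.26, 14.9 and 17.6 CPM in natural males, 10.2, 6.495 and 7.61 in IVF males, 10.1, 5.87 and 4.46 in natural females and 9.50, 7.61 and 12.1 in IVF females. For Psmb9 the same 2 natural males were the highest libraries. Psmb10, on chromosome 8, ranged from 9.47 to 26.9 CPM, with IVF values of 0.10 (SE 0.33) in females and -0.34 (SE 0.33) in males. Against females, natural males had 0.72 (SE 0.29) for Psmb8 and 0.95 (SE 0.37) for Psmb9, with edgeR adjusted p-values of 0.276 and 0.256. Psmb5 is the constitutive subunit that Psmb8 replaces. The ratio of Psmb8 to Psmb5 counts was 0.801, 1.58 and 1.57 in natural males and 0.7, 0.659 and 0.529 in IVF males, without overlap. In females it was 1.08, 1.06 and 1.05 in natural and 1.56, 1.14 and 1.22 in IVF animals, in the opposite order and also without overlap. An exact two-sided permutation test gave p = 0.1 for each of these 2 comparisons, the smallest value that 3 against 3 allows, and the ratio was chosen after these values were seen. The ratios of the other subunits to those they replace overlapped in both sexes. Psmb9 to Psmb6 was 0.0791, 0.16 and 0.214 in natural males and 0.109, 0.0622 and 0.0723 in IVF males, and in females it ran from 0.0499 to 0.126 in natural and from 0.0809 to 0.159 in IVF animals. Psmb10 to Psmb7 was 0.211, 0.305 and 0.353 in natural males and 0.248, 0.217 and 0.178 in IVF males, and in females it ran from 0.125 to 0.685 in natural and from 0.216 to 0.411 in IVF animals. The IVF males with low ratios were also low in macrophage markers, whose sum was 243.8 to 409.4 CPM beside 434.5 to 487.1 in natural males, and the part of this in the ratio was not tested.

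**Figure D5:**
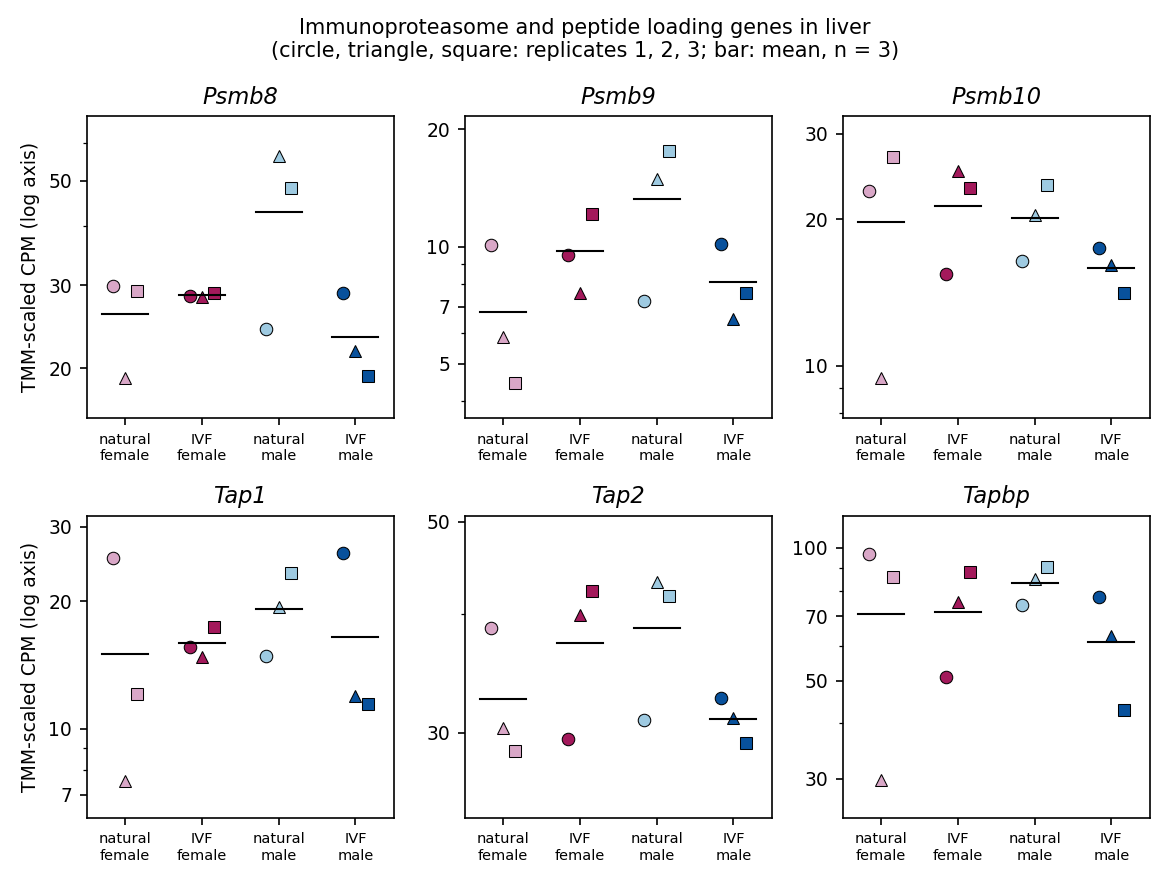
TMM-scaled CPM (log axis) of the immunoproteasome genes (upper panels) and of the peptide transporter and tapasin genes (lower panels) in each library, by group; symbols are replicates 1 to 3 and bars are group means, n = 3. For Psmb8 and Psmb9, natural males 2 and 3 lie above all other libraries.

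Whether the IVF difference itself depended on sex was tested by the interaction. EdgeR called 0 of 32 genes and 0 of 13204 genes (0%), with 4 of 32 at an unadjusted p under 0.05, against 3.87% of all genes. DESeq2 and voom called 0 of the 32, with 4 and 3 at an unadjusted p under 0.05. The 4 by edgeR were Psmb8 (-1.01, SE 0.41), Psmb9 (-1.22, SE 0.53), H2-Q4 (-0.71, SE 0.30) and H2-Q1 (-1.01, SE 0.44), all with a lower IVF value in males, against 2.09% of all genes in this direction. The edgeR Benjamini-Hochberg adjusted p of each was 0.9999. For H2-Q10 the interaction was -0.47 (SE 0.33, edgeR adjusted p = 0.9999). Of the 32 genes 25 had a negative interaction, with a median of -0.34 beside 0.03 over all genes, and 20 with libraries scaled by total counts alone, which moved the median of all genes to 0.23. The class II genes were divided evenly, 4 positive and 4 negative, or 5 and 3 with that scaling.

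The transactivators and the wider pathway were compared last. Nlrc5 was at 10.2, 9.47 and 9.27 CPM in natural females and 11.73, 10.7 and 12.0 in IVF females, which did not overlap, and at 7.99, 9.69 and 13.1 in natural males and 10.5, 11.6 and 6.16 in IVF males. The IVF value of Nlrc5 in females was 0.25 (SE 0.25, edgeR adjusted p = 1). Over the 12 libraries, 4 pairs of genes were related on the log2 CPM scale, with 100000 permutations and Benjamini-Hochberg adjustment over the 4. Cd74 and H2-Ab1 had a Pearson r of 0.956 (adjusted permutation p = 4e-05, its raw value of 1e-05 being the smallest possible) and a Spearman rho of 0.951 (8e-05). Without the 2 libraries farthest from the median of Cd74, r was 0.887, and it was 0.89 in the 6 females and 0.941 in the 6 males. Ciita and H2-Ab1 had r of 0.817 (adjusted permutation p = 0.00296) and rho of 0.762 (0.0113), with r of 0.482 without the 2 libraries farthest from the median of Ciita. Without both shallow libraries r was 0.96 over 10 libraries, and 0.818 when the 2 farthest of those were left out too. Within a sex r was 0.663 in females and 0.859 in males. Psmb8 and Psmb9 had r of 0.752 (adjusted permutation p = 0.00632) and rho of 0.685 (0.0232), with 0.407 without the 2 farthest, 0.38 in females and 0.939 in males. The size of this relation rests on the 2 libraries farthest from the median of Psmb8. Nlrc5 and H2-K1 had r of 0.24 (adjusted permutation p = 0.472) and rho of 0.0979 (0.77). Adjusted exact permutation p-values of r within females were 0.0667 for Cd74, 0.278 for Ciita and 0.617 for Psmb8 with their partners. Within males they were 0.0306, 0.037 and 0.0306. By rho, each adjusted permutation p within a sex was 0.0667 or more. The permutations over 12 libraries ignored the groups. The libraries of a relation share depth and scaling, and the sex difference of class II enters the first 2 pairs.

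Partners outside the MHC were read from 3 lists. Of 17 genes of processing and loading tested, 0 were called in the 5 separate contrasts and 1, March1, in the sex average. Over all genes, at most 2.19% were called in a separate contrast and 7.2% in the sex average. A call of 1 in 17, here and in the list of transcription and signalling below, is thus no more than the share of all genes. March1, a ubiquitin ligase that removes class II from the cell surface, was lower in males (-1.03, SE 0.27, edgeR adjusted p = 0.0402), at 2.33, 2.46 and 2.702 CPM in IVF males, 9.35, 7.65 and 3.68 in IVF females, 4.07, 3.495 and 2.25 in natural males and 3.21, 6.59 and 5.45 in natural females. Ifi30, a lysosomal thiol reductase of class II processing, had the smallest p of the list in IVF animals (-0.97, SE 0.25, edgeR adjusted p = 0.0852), without overlap between the sexes. Of 17 genes of MHC transcription and interferon-gamma signalling tested, Irf1 alone was called, in the sex average (-0.70, SE 0.18, edgeR adjusted p = 0.0352). Irf1, an interferon-induced transcription factor, was at 34.6, 38.2 and 39.1 CPM in natural females, 53.4, 40.0 and 45.1 in IVF females, 19.3, 29.5 and 27.2 in natural males and 36.0, 18.8 and 22.3 in IVF males, so that males were below females in both modes of conception. Rfx5, a subunit of the complex that binds the X box of class II promoters, had the smallest p of this list in natural animals (-0.87, SE 0.26, edgeR adjusted p = 0.139) and for IVF in males (0.72, SE 0.26, edgeR adjusted p = 1). It was at 5.67, 11.4 and 8.06 CPM in natural males, where the other 9 libraries ran from 11.74 to 18.6. For IVF in females the smallest p belonged to Irf9 (0.39, SE 0.21), with an edgeR adjusted p of 1. Of the 3 constitutive proteasome subunits Psmb5 was called, higher in males in the sex average (0.56, SE 0.14, edgeR adjusted p = 0.0402), and Psmb6 and Psmb7 were not. The Irf1, March1 and Psmb5 calls come from the contrast that was added after the data were seen.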

How the data were processed

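Poly-A messenger RNA libraries of 12 livers were read from 1 table of raw counts per gene symbol, which the authors deposited. Per the submitters' processing notes, Trimmomatic 0.32, STAR 2.3.0e and featureCounts 1.5.0 were used with the mm10 build. Which gene annotation served, and whether strand and multi-mapping reads were used, is not given in the sources used here. Groups came from the titles, and replicate numbers follow accession order and pair nothing.

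Counts were tested with edgeR 4.0.16 (R 4.3.3) by its quasi-likelihood test, after filterByExpr and TMM scaling, with 1 mean per group over all 12 libraries and Benjamini-Hochberg adjustment over all genes tested (threshold 0.05). Each standard error was obtained from the fold change (log2) and the square root of its F statistic. Relations used log2 CPM with a prior count of 2. Total counts of 6826534 to 27832271 per library set the precision of low genes, and the floor of 3 counts covers counting error only. The code was tested on simulated data.

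Of the 52 symbols, 48 matched GENCODE M21 on GRCm38, which gave positions, exon lengths and shared 50-base stretches. Promoters are from RefSeq, GRCm38.p6. Genes are described library by library where they were called, had an unadjusted p under 0.05 in a contrast or are core members of a role; in the pathway lists, those called or with a smallest p in a contrast. The members and lists were chosen with earlier results of these data known. Alternatives were other scalings, filters, DESeq2 1.42.0, limma 3.58.1 voom, fits of the compared groups alone, a term for the 2 shallow libraries, and leaving out libraries. The averaged contrasts and the ratio to Psmb5 were added after values had been seen.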

Additional observations from a re-analysis of the deposited data

How the results depend on the processing

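H2-Ab1, H2-Aa, H2-Eb1 and Cd74 kept the direction of their averaged sex difference under every alternative run, but not their calls. The number of genes called in the averaged sex contrast was 4, and leaving out 1 library gave 0 to 4. With DESeq2 there were 2 calls between the sexes in natural and 1 in IVF animals, where edgeR gave 0, and without both shallow libraries there was 1 in IVF animals (H2-K2). Over all genes DESeq2 called 678 between the sexes in natural animals, 721 in IVF animals, 1693 in their average and 9 in the interaction, where edgeR called 234, 289, 951 and 0. Scaled by total counts alone, the median of the 32 genes between the sexes in natural animals was -0.342, beside -0.336 over all genes. Leaving out 1 library moved the median interaction between -0.638 (without IVF female 1) and -0.168 (without natural male 3). In females alone r was -0.218 for Nlrc5 with H2-K1, the reverse of its sign in all libraries, 0.663 for Ciita with H2-Ab1, 0.89 for Cd74 with H2-Ab1 and 0.38 for Psmb8 with Psmb9. The causes were not tested. For single genes, 387 leave-out fits kept direction and status (called or not called), 32 lost a call and 1 gained one. Most of the 387 had no call to keep. Only H2-Ab1, H2-Aa, H2-Eb1 and Cd74 were called with all libraries, and each kept its call in 4 of 12 fits. Of the other alternatives 288 kept direction and status, most of them without a call to keep, 5 lost and 6 gained a call, and 0 reversed. No paired analysis was possible because the groups compared share fewer than 2 numbers in the labels, with 1 leading number common to IVF female 1 and IVF male 2 and none to the other groups. With 3 libraries a group and genes near 1 CPM, small differences were not detectable at this depth.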

Other observations

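The 2 symbols left out for their -ps ending were both counted in every library. H2-Ea-ps ran from 1.70 to 26.9 CPM and H2-T-ps from 28.1 to 87.1 CPM, and both were highest in IVF female 2. H2-Ea-ps was at 6.84 CPM or more in each female library and at 6.32 CPM or less in each male library.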
